A study of Mus musculus with 12 samples.

Results

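The genes described here are the protein-coding genes of the cytoplasmic ribosome. They were chosen by symbol, as the protein-coding entries of the authors' TPM table (length-scaled abundances) whose symbol is Rpl, Rps or Rplp followed by a number. There were 83 such genes of 39179 counted, 51 of the large subunit and 32 of the small subunit. Total RNA, depleted of ribosomal RNA, was sequenced from mouse embryonic stem cells in 12 libraries of 4 groups. BRE-negative and BRE-positive cells (3 libraries each, collected in pairs at 3 times) came from a BRE-GFP reporter line of mixed CBA and C57Bl/6 strain, grown in FCS and Lif on feeders and sorted on SSEA1 and GFP. The reporter expresses GFP under a BMP response element (BRE), so GFP marks cells with BMP signalling. FL cells (2 libraries) were Smad1/5 fl/fl and KO cells (4 libraries) were Smad1/5 -/-. Both were of mixed CD-1, 129/Ola and C57Bl/6 strain, grown in 2i and Lif on gelatin without a stated sort. SMAD1 and SMAD5 carry the BMP signal to the nucleus. These cells came from 2 parental lines, each giving 1 FL and 2 KO libraries, but the labels do not tie libraries to lines. Ages do not apply to these cultures, and the series calls the libraries biological replicates without saying which cultures were separate, so a p-value here measures only how much these samples vary, which may be technical.

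A cytoplasmic ribosome holds each of its proteins in about equal number, and cells make the proteins in step with ribosomal RNA. Messages of these genes carry a terminal oligopyrimidine (TOP) tract at the start, through which mTOR signalling controls their translation, while MYC family factors and the ETS factor GABP are known to act on their transcription. Growing embryonic stem cells make many ribosomes, and some members have a second copy elsewhere in the genome, often expressed in another tissue. Excess free RPL5 and RPL11 bind MDM2 and thereby raise p53.

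Promoter sequence is shown for 4 genes on which results below turn. Rpl11, of the 5S ribonucleoprotein, was the member called between the BRE groups. Rpl10 and Rps4x are X-linked, and Rpl10l is the autosomal copy of Rpl10. Each line gives 120 bases directly before the start of the gene, 5′ to 3′ on the gene's strand, from RefSeq promoters of GRCm38.p6. Where GENCODE M21 starts the gene further upstream, the bases end before that start. Capitals mark CTTTCC or CTTCCG on either strand, so that GGAAAG and CGGAAG are matches too. Positions are chr4:136053429-136053548 (minus strand) for Rpl11, chrX:74270692-74270811 (plus strand) for Rpl10, chr12:66284402-66284521 (minus strand) for Rpl10l and chrX:102189395-102189514 (minus strand) for Rps4x.
Rpl11: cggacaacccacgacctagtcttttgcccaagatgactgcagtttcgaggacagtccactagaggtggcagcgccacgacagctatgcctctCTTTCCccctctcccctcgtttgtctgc
Rpl10: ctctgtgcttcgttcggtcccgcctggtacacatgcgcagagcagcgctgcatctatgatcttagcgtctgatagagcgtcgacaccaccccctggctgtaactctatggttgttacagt
Rpl10l: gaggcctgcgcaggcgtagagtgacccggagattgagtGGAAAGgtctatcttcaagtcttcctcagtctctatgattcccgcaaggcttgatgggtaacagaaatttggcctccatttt
Rps4x: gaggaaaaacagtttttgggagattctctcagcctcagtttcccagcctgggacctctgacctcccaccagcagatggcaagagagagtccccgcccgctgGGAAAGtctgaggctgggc

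RefSeq promoters, from 250 bases before to 50 after a start, matched 62 of the 83 genes by symbol. CTTCCG, the core that ETS factors bind, stood on either strand in 41 of the 62 (66.1%), against 18.8% of 27025 genes with a promoter. CTTTCC, a pyrimidine stretch that reads GGAAAG on the other strand, stood on either strand in 32 (51.6%), against 29.3% of all. A TOP tract lies at the start of the message, so these matches do not count TOP tracts. CACGTG, the E-box that MYC binds and its own reverse complement, stood in 6 (9.7%), against 8.1%. CTTTCC and CTTCCG do not contain each other, and a match describes letters only. A gene was counted if any of its listed promoters matched. The 27025 genes were not selected by biotype or expression, so they are not a like set for these protein-coding members.

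Library totals were between 25862573 and 37319846 counts. The 83 genes together took between 4.03% and 5.31% of a library. Their share was 4.76% ± 0.49 in BRE-negative, 4.34% ± 0.27 in BRE-positive (SD, n = 3 each), 4.43% ± 0.41 in FL (SD, n = 2) and 4.58% ± 0.22 in KO cells (SD, n = 4). The 4 groups overlapped. Pou5f1, Sox2, Nanog and 4 other stem cell markers summed to between 3447 and 4666 CPM (read counts scaled to a common library size) in every library, so the labelled cell type was present. The 11 feeder fibroblast markers summed to between 43.5 and 164 CPM in the BRE libraries and between 7.01 and 15.01 CPM in the Smad1/5 libraries, where 2 of them had 0 counts in all KO libraries. In FL libraries Smad1 was at 18.0 and 19.1 CPM, in KO libraries at 12.3 to 17.4 CPM. For Smad5 the FL values were 31.3 and 33.7 CPM and the KO values 25.1 to 34.6 CPM. Which exons were deleted is not stated, so counts over the whole genes do not check the KO label.

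**Figure D1:**
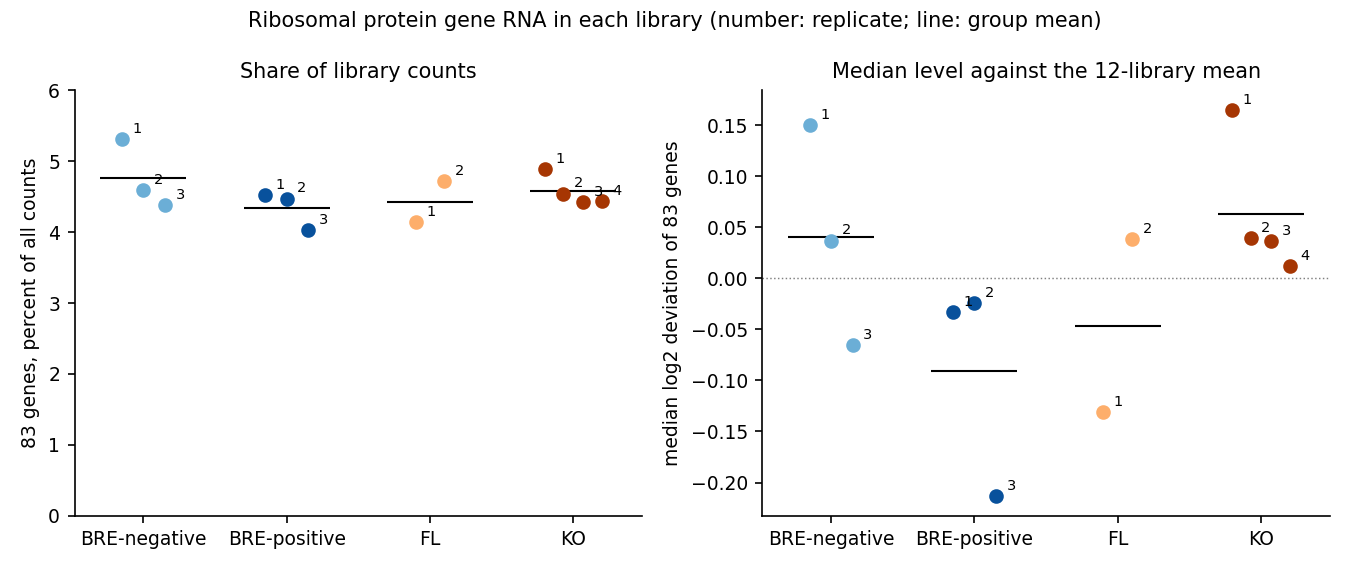
Left, the summed share of the 83 ribosomal protein genes in each library, in percent of all counts. Right, the median over the 83 genes of each gene's log2 CPM minus its mean over the 12 libraries; points are libraries with their replicate number and lines are group means. The shares lie between 4.03% and 5.31%, and BRE-positive replicate 3 has the lowest value in both panels.

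Levels of the members spanned a wide range. By mean TPM the highest was Rpl8, a core protein of the large subunit, at 4984 TPM. It was followed by Rplp1, an acidic protein of the P stalk that recruits translation factors, at 4771 TPM, and Rpl4 at 4676 TPM. The lowest were Rpl3l at 0.845 TPM, Rpl39l at 20.1 TPM and Rpl24 at 24.2 TPM, and the median was 357 TPM. Rpl3l, the striated muscle copy of Rpl3, was at 7 to 23 counts per library. Rpl39l is a testis copy of Rpl39, whose protein lies at the exit of the peptide tunnel.

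This order depended on the length assigned to each gene. The gene lengths implied by the deposited TPM were longer than the main annotated transcript for most members, most of all for Rpl30, at 52.1 times its 570 bases. Rpl30 ranked number 80 of 83 by TPM. It ranked number 46 by CPM divided by the length in kb of the main (APPRIS principal) transcript of GENCODE M21, a scale added after the data were seen. On that scale Rpl8 (1843 CPM per kb), Rplp1 (1730.0) and Rps4x (1707) were highest, and Rpl3l (0.398), Rpl39l (11.6) and Rpl10l (30.7) lowest, around a median of 548. Rps4x encodes a protein of the small subunit. Rpl24 ranked number 80 on that scale, at 47.7 CPM per kb.

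Many members have near-identical pseudogenes or copies, so their counts are uncertain where the counting could split reads. Of the 50-base stretches of the main transcript, 81.7% in Rpl24 and 92.1% in Rpl10 also occurred in transcripts of other annotated genes. The share was 7.9% in Rpl8, 7.6% in Rpl10l and 0% in Rpl39l and Rpl3l. Among the other X-linked members it was 85.5% in Rpl36a, 72.2% in Rps4x and 16.5% in Rpl39.

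The first comparison set BRE-positive against BRE-negative cells of the same culture, with the pair as a block. Ribosomal protein RNA was slightly lower in the BRE-positive cells nearly throughout the family, but 1 gene passed the test. Rpl11 fell 1.17-fold, and 0 members rose. Among the 83, 82 had a log2 fold change below 0, with a median of -0.14, and most lay between -0.18 and -0.08 (the first and the last decile). The typical standard error of 1 member was 0.05. The large and small subunits had the same median, -0.14.

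By edgeR's quasi-likelihood test, 1 of 83 members was called lower (Benjamini-Hochberg adjusted p under 0.05), against 1.02% of 15435 genes tested, and 0 higher, against 1.96%. The single call is near the background. At an unadjusted p under 0.05, 55 members were lower, against 8.33% of all genes, and 0 higher, against 9.92%. All genes had a median of -0.0009, and 50.3% of them were below 0. In 3 of 3 pairs 63 members were lower, against 22.7% of all genes. For 9 members the groups did not overlap, each lower, against 3.61% of all genes. RNA in fewer cells and less RNA per cell cannot be told apart in such bulk samples.

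The pairs differed in size. The median ratio of the 83 was -0.22 in pair 1, -0.07 in pair 2 and -0.18 in pair 3, where all genes had -0.019, -0.014 and -0.017. In pair 1, 79 of 83 members were lower in the BRE-positive library, against 53.1% of all genes. In pair 2, 66 were lower, against 53%, and in pair 3, 81, against 53.1%.

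**Figure D2:**
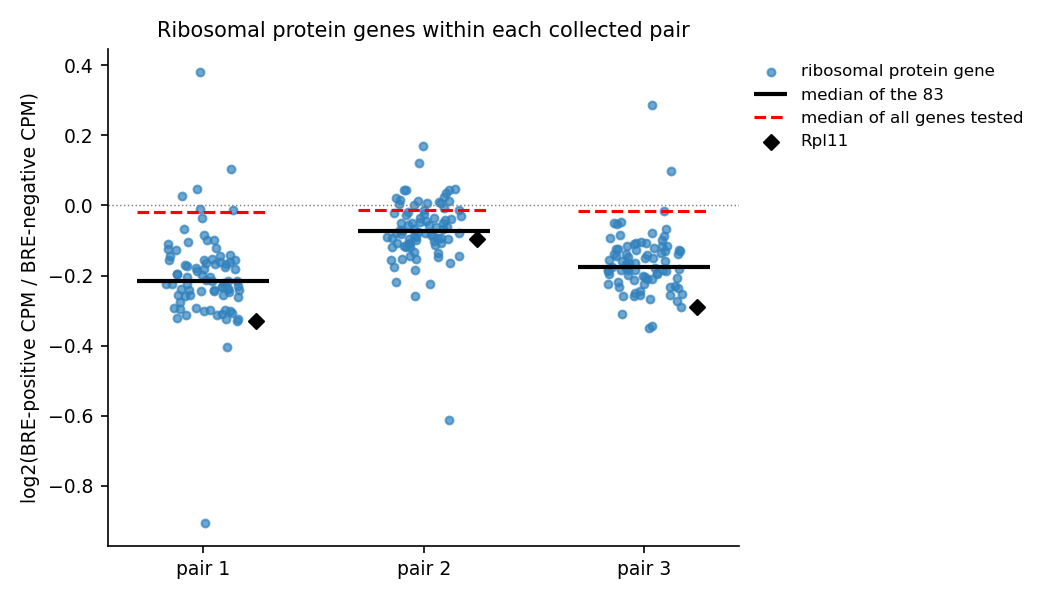
Each point is 1 of the 83 genes, and the vertical axis is the log2 ratio of its CPM in the BRE-positive over the BRE-negative library of a pair (0.1 CPM added to each). Black lines are the medians of the 83 (-0.22, -0.07 and -0.18), red dashed lines those of all genes tested, and diamonds are Rpl11.

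Rpl11 stood at 342, 300.1 and 281.2 CPM in BRE-negative and at 272, 281.0 and 230.0 CPM in BRE-positive replicates 1 to 3. The groups lay next to each other without overlap, and Rpl11 was lower in each pair (log2 fold change -0.22 ± 0.06, SE, edgeR adjusted p = 0.0483). Its call was lost in the fit without the pair block, in the fit of all 12 libraries, in limma on log2 TPM and without pair 3. The number of members called lower was 36 without pair 1, 6 without pair 2 and 0 without pair 3, and 36 with no count filter, so it depended on which pairs entered and on the filter.

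Next in order of p came Rps12, a small subunit protein (-0.21 ± 0.06, edgeR adjusted p = 0.0581), Rpl23a, a tunnel exit protein (-0.20 ± 0.05, edgeR adjusted p = 0.0616), and Rpl41, a very short peptide (-0.21 ± 0.06, edgeR adjusted p = 0.0636), named after their values were seen. Rpl5, the partner of Rpl11 in the 5S particle, differed by -0.11 ± 0.05 on the log2 scale (SE, edgeR adjusted p = 0.28). The P stalk, which Rplp0, Rplp1 and Rplp2 form on a base with Rpl12, had 0 of 4 called and a median of -0.13. Rpl8 stood at 1937, 1677 and 1488 CPM in BRE-negative and at 1571, 1544 and 1348 CPM in BRE-positive cells, and these groups overlapped (-0.17 ± 0.05, edgeR adjusted p = 0.103). Rps27a, which encodes a fusion of ubiquitin and a small subunit protein, had -0.17 ± 0.05 (edgeR adjusted p = 0.083). Rps16 was the 1 member above 0, named after its value was seen, with 0.06 ± 0.06 (edgeR adjusted p = 0.628). Of the 8 proteins lining the tunnel exit 0 were called. Of the 12 genes mutated in Diamond-Blackfan anaemia, a red cell aplasia, 1 was called, which is Rpl11 again.

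Short transcripts as a class were also lower. The 890 other protein-coding genes with a main transcript of up to 1000 bases had a median of -0.07, and the 62 members of that length -0.14. The 4010 genes longer than 4000 bases had 0.05. Over all libraries, 245 other short genes had a mean log2 CPM of at least 5. Their median deviations from the mean over all libraries were -0.06, 0.02 and -0.11 in BRE-negative replicates 1 to 3. In BRE-positive replicates they were -0.14, -0.11 and -0.29. The members' medians were 0.15, 0.04 and -0.07 in BRE-negative and -0.03, -0.02 and -0.21 in BRE-positive replicates. By these library medians the short genes fell further than the members in pairs 2 and 3, and less in pair 1. The members' median ratio within pair 3 was -0.18, and such a ratio was not taken for the short genes. The order in pair 3 may therefore depend on the measure. With offsets per library for length and GC content the members' median was -0.09 and 1 was called. On the log2(TPM + 1) scale the members' median was -0.05 while all genes had 0.07, 13 members lay above 0 and 0 were called with limma. Of 11 feeder markers, 4 were called lower in BRE-positive cells, against 1.02% of all genes, and 0 higher. The list's median was -0.42, 9 of the 11 lay below 0 and 2 above, and their sum ranged over 72.1 to 164 CPM in BRE-negative and 43.5 to 143 CPM in BRE-positive libraries. The part of feeder RNA in the members' difference was not tested.

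Most mitochondrial ribosomal protein, translation factor and biogenesis genes also lay below 0, where 50.3% of all genes did. Of all genes, 1.96% were called higher and 1.02% lower. Of 75 mitochondrial ribosomal protein genes, which serve a separate ribosome, 57 lay below 0 and 0 were called, with a median of -0.06. Of 19 translation factor and other TOP genes, 16 lay below 0, with a median of -0.10, and 1 was called, Pabpc1, the cytoplasmic poly(A)-binding protein, which rose 1.24-fold (0.31 ± 0.05, edgeR adjusted p = 0.0052). Of 31 ribosome biogenesis factors, 27 lay below 0, with a median of -0.09, and 1 fell, the nucleolar methyltransferase gene Fbl (1.22-fold lower, edgeR adjusted p = 0.0143). Of 16 regulators, 7 lay below 0 and 9 above, with a median of 0.01. The 1 called was Mycn, a MYC family factor, which fell (-0.48 ± 0.05 on the log2 scale, edgeR adjusted p = 0.00039). It stood at 105, 62.9 and 68.1 CPM in BRE-negative and at 75.5, 44.9 and 47.2 CPM in BRE-positive cells.

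The second comparison set KO against FL cells and asked what changed without SMAD1 and SMAD5. No ribosomal protein gene passed the test as fitted, without a block. Of 83 members, 0 were called in each direction by edgeR's quasi-likelihood test, against 1.85% of 15933 genes called higher and 3.18% called lower. At an unadjusted p under 0.05, 10 members were higher, against 11.1% of all genes, and 1 lower, against 11.8%. DESeq2 and limma also called 0.

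The 6 Smad1/5 libraries were put into 2 sets by their deviations from the group mean over all genes. FL replicate 1 deviated together with KO replicates 1 and 2 (correlation across genes 0.39 and 0.51). FL replicate 2 did so with KO replicates 3 and 4 (0.53 and 0.50). The deviations of 2 FL libraries mirror each other, so each KO library had to follow 1 of them. The signs alone therefore show no sets. KO replicates 1 and 2 (median chi-square 2.49 per gene) and 3 and 4 (1.22) were more alike than the other KO pairs (4.05 to 4.44). The FL replicates 1 and 2, placed in different sets, had 2.66, near the value of KO replicates 1 and 2. FL libraries were not compared with KO libraries in this way, so the likeness does not place the FL libraries. The series describes 1 FL and 2 KO libraries for each parental line, but whether these sets are the lines was not given by the labels. With the sets as a block, a fit added after the data were seen, 2 members were called higher and 0 lower, against 8.65% and 9.72% of all genes. The 2 were Rps27l (0.23 ± 0.06, SE, edgeR adjusted p = 0.0266) and Rpl24 (0.27 ± 0.07, edgeR adjusted p = 0.036).

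In the fit over the 6 libraries 76 of 83 members had a change above 0, against 51.7% of all genes, with a median of 0.11 where all genes had 0.01. The 2 sets differed in this. Each set holds 1 FL library, so a set cannot be told apart from its single FL library. In the set of FL replicate 1 the median of KO over FL was 0.24 and 79 members lay above 0, and in the set of FL replicate 2 it was -0.02 and 35 lay above 0. The difference between the sets was not tested. The typical standard error of 1 member was 0.08. KO and FL libraries did not overlap for 22 members, each higher in KO, against 17.8% of all genes. FL replicate 1 had a median deviation of -0.13 from the 12-library mean, where FL replicate 2 had 0.04 and KO libraries 0.01 to 0.17. Without FL replicate 1 the median fell to 0.03 and 61 members were above 0. Without FL replicate 2 the median was 0.18. The 955 other protein-coding genes with a main transcript of up to 1000 bases had a median of 0.04, and the 62 members of that length 0.12. The 3957 genes longer than 4000 bases had 0. Of the short other genes, 245 had a mean log2 CPM of at least 5. Their median deviations were 0.01 and 0.06 in FL and 0.15, 0.10, 0.11 and 0.12 in KO libraries.

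Rpl24, a large subunit protein of the intersubunit bridge, had the lowest p of the family. Its FL values were 28.7 and 28.4 CPM, and KO replicates 1 to 4 held 34.9, 32.0, 34.2 and 36.0 CPM. The groups did not overlap (0.27 ± 0.08, SE, edgeR adjusted p = 0.103). Rps27l, a copy of Rps27 known as a p53 target, had FL values of 184 and 205 CPM and KO values of 231, 216, 232 and 231 CPM (0.23 ± 0.07, edgeR adjusted p = 0.108). Rpl10l had the largest difference downwards, -0.61 ± 0.26 (edgeR adjusted p = 0.211). FL libraries held 100.5 and 57.7 CPM and KO libraries 35.1, 63.8, 51.1 and 57.1 CPM, and these overlapped.

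**Figure D3:**
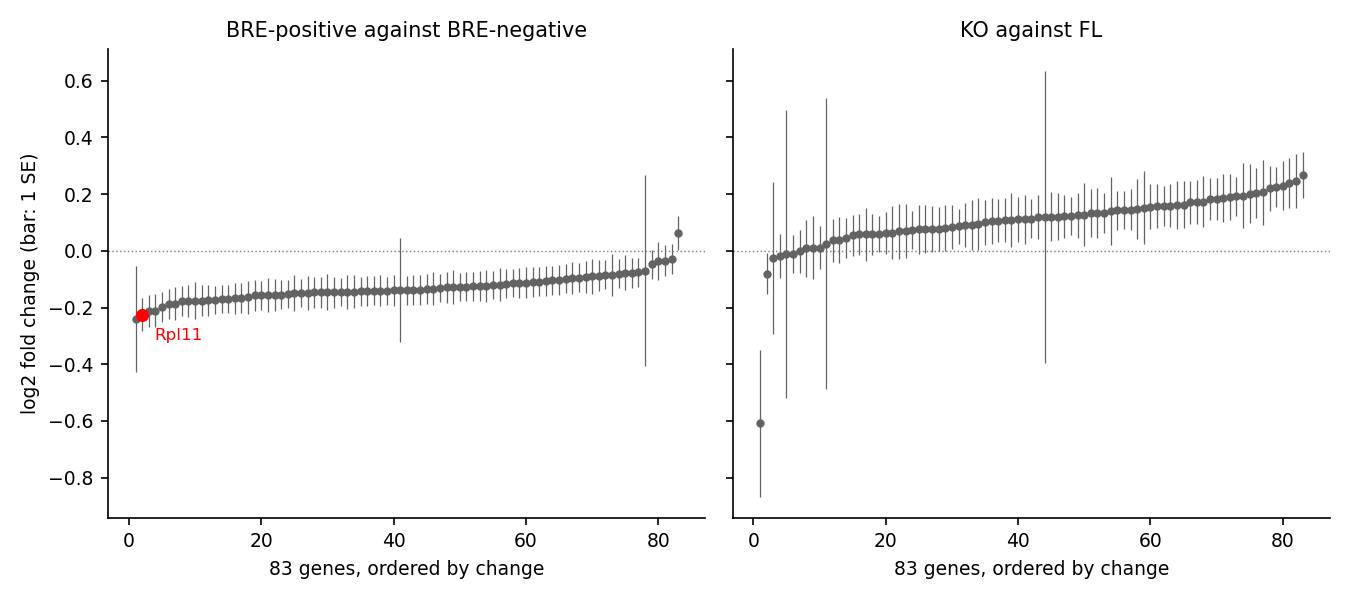
The log2 fold change of each of the 83 genes, ordered within each panel, with bars of 1 SE. In BRE-positive against BRE-negative cells 82 of 83 lie below 0 and Rpl11, in red, passed the test; in KO against FL cells 76 lie above 0 and 0 passed.

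Of 31 biogenesis factors, 3 rose in KO cells and 0 fell, where 1.85% of all genes were called higher and 3.18% lower. The list's median was 0.18, and 30 of the 31 lay above 0. They were Nip7, which acts in pre-rRNA processing (1.26-fold), Nolc1, a nucleolar phosphoprotein (1.23-fold), and the RNA helicase gene Ddx21 (1.22-fold), with edgeR adjusted p from 0.033 to 0.0446. Myc, the growth factor response gene, rose 2.39-fold, from FL values of 3.06 and 3.18 CPM to KO values of 4.95, 6.63, 8.70 and 9.43 CPM (1.26 ± 0.28, edgeR adjusted p = 0.0442). It was the 1 regulator of 16 called. Of 19 translation factor and TOP genes, 2 rose, Pabpc1 (1.26-fold) and the histone chaperone gene Nap1l1 (1.25-fold). Of 75 mitochondrial ribosomal protein genes 0 were called, with a median of 0.08.

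The third comparison set the 6 BRE libraries against the 6 Smad1/5 libraries. The experiments differ in culture, line, strain, sorting and reporter or Smad genotype together, so these cannot be told apart. This fit took the 12 libraries as separate, without the BRE pairs or the parental lines. Its p-values may therefore be too small for a difference between lines. Of 83 members, 19 were higher and 23 lower in the BRE libraries (edgeR adjusted p under 0.05), against 33.7% of 17112 genes called higher and 34.0% lower. In either direction 50.6% of members were called, against 67.8% of all genes. The experiments did not overlap in CPM for 11 members higher in the BRE libraries (13.3%), against 21.4% of all genes. They did not overlap for 11 members lower (13.3%), against 23.3%. The median of the members was -0.05. The 4 members on the X chromosome and the 7 on chromosomes 1, 8 and 14 had the sign of the other genes of their chromosomes, and the 72 elsewhere were of both signs.

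The 4 X-linked members were each between 1.98-fold and 2.38-fold lower in the BRE libraries. Rpl36a, a protein near the exit site for transfer RNA, was at 188, 144 and 143 CPM in BRE-negative, 161, 146 and 131 in BRE-positive, 323 and 367 in FL and 434, 391, 358 and 341 in KO cells (-1.25 ± 0.09, SE). Rpl10, which joins the large subunit in its last maturation step, was at 409 to 549 CPM in the BRE libraries and at 937 to 1142 CPM in the Smad1/5 libraries (-1.09 ± 0.07). Rps4x was at 974 to 1235 and at 2029 to 2493 CPM (-1.04 ± 0.07). Rpl39 was at 107 to 135 and at 209 to 260.1 CPM (-0.99 ± 0.07). For none of the 4 did the experiments overlap, and edgeR adjusted p was between 3.34e-08 and 8.47e-08. The 296 other X-linked protein-coding genes whose mean log2 CPM reached 3 had a median of -1.02, and 90.2% of them were called lower. The Y-linked genes Eif2s3y, Ddx3y and Uty were at 0 to 1.51 CPM in the BRE and 0 to 0.034 CPM in the Smad1/5 libraries. The number of X chromosomes was not measured, and its part was not tested.

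Members on chromosomes 1, 8 and 14, singled out after their values were seen, lay on the other side. All 7 were called higher in the BRE libraries, with a median of 0.40. The other 1358 genes of these chromosomes had a median of 0.46, and 70.8% of them were called higher. The 7 include Rpl7 and Rpl31 on chromosome 1, Rpl13 on chromosome 8 and Rps24 and Rpl15 on chromosome 14. Rpl15, a large subunit protein, stood at 388 to 462 CPM in the BRE and at 245 to 289 CPM in the Smad1/5 libraries (0.68 ± 0.06, SE, edgeR adjusted p = 5.19e-07). Copy number of these chromosomes was not measured.

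**Figure D4:**
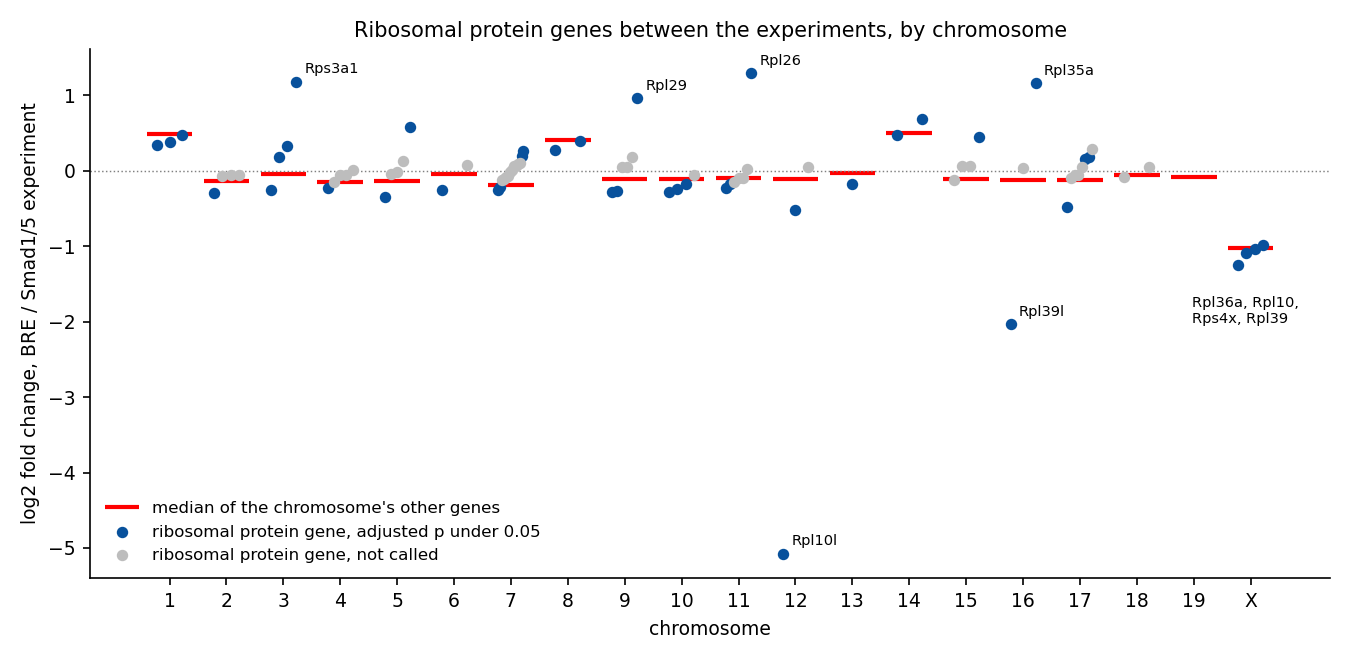
Points are the 83 genes by chromosome, with the log2 fold change of the BRE over the Smad1/5 libraries on the vertical axis, blue where called and grey where not. Red lines are the medians of the other protein-coding genes of each chromosome, near -1.02 on X and between 0.41 and 0.50 on chromosomes 1, 8 and 14; names are given beyond 0.9 in either direction.

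On the remaining autosomes 72 members had a median of -0.05 and 31 lay above 0, with 12 called higher and 19 lower, and the 7286 other genes there had a median of -0.11, with 25.1% higher and 41.7% lower. A few members stood far from their chromosomes. Rps3a1, a small subunit protein that binds initiation factor eIF3, was at 504 to 631 CPM in the BRE and at 227 to 278 CPM in the Smad1/5 libraries (1.18 ± 0.08, SE, edgeR adjusted p = 2.42e-08). Rpl35a, a Diamond-Blackfan gene, was at 214 to 297 and at 100.1 to 139 CPM (1.16 ± 0.08, edgeR adjusted p = 7.01e-08). Rplp0, the core of the P stalk, was at 1649 to 2282 and at 1147 to 1425 CPM (0.58 ± 0.08, edgeR adjusted p = 2.67e-05), while Rplp1, Rplp2 and Rpl12 were not called. The 2 experiments did not overlap for Rps3a1, Rpl35a and Rplp0, which held for 21.4% of all genes in this direction. Of their 50-base stretches, 71.0%, 54.5% and 41.8% also occurred in transcripts of other genes. Whether reads were split alike in both experiments was not tested.

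Rpl26 and Rpl29 were higher in the BRE libraries and uneven among the Smad1/5 libraries. Rpl26, whose protein lies by the tunnel exit, was at 453 to 633 CPM in the BRE libraries. FL replicates 1 and 2 held 107 and 324 CPM, and KO replicates 1 to 4 held 136, 118, 304 and 294 CPM. Rpl29, a basic large subunit protein, was at 146 to 198 CPM in the BRE libraries, with FL values of 45.9 and 125 CPM and KO values of 54.7, 49.95, 135 and 132 CPM. FL replicate 1 and KO replicates 1 and 2, which form the first set above, were low for both genes, and FL replicate 2 and KO replicates 3 and 4 high. KO against FL differed by -0.01 ± 0.51 for Rpl26 and 0.12 ± 0.52 for Rpl29 (log2, SE), the widest errors of the family beside Rpl3l. Between the experiments Rpl26 had 1.29 ± 0.29 (edgeR adjusted p = 0.00132) and Rpl29 0.97 ± 0.29 (edgeR adjusted p = 0.00872). The call of Rpl29 was lost without FL replicate 1 (0.69, edgeR adjusted p = 0.0512). The share of 50-base stretches also found in other genes was 71.3% in Rpl26 and 66.6% in Rpl29. Its part in these differences was not tested.

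**Figure D5:**
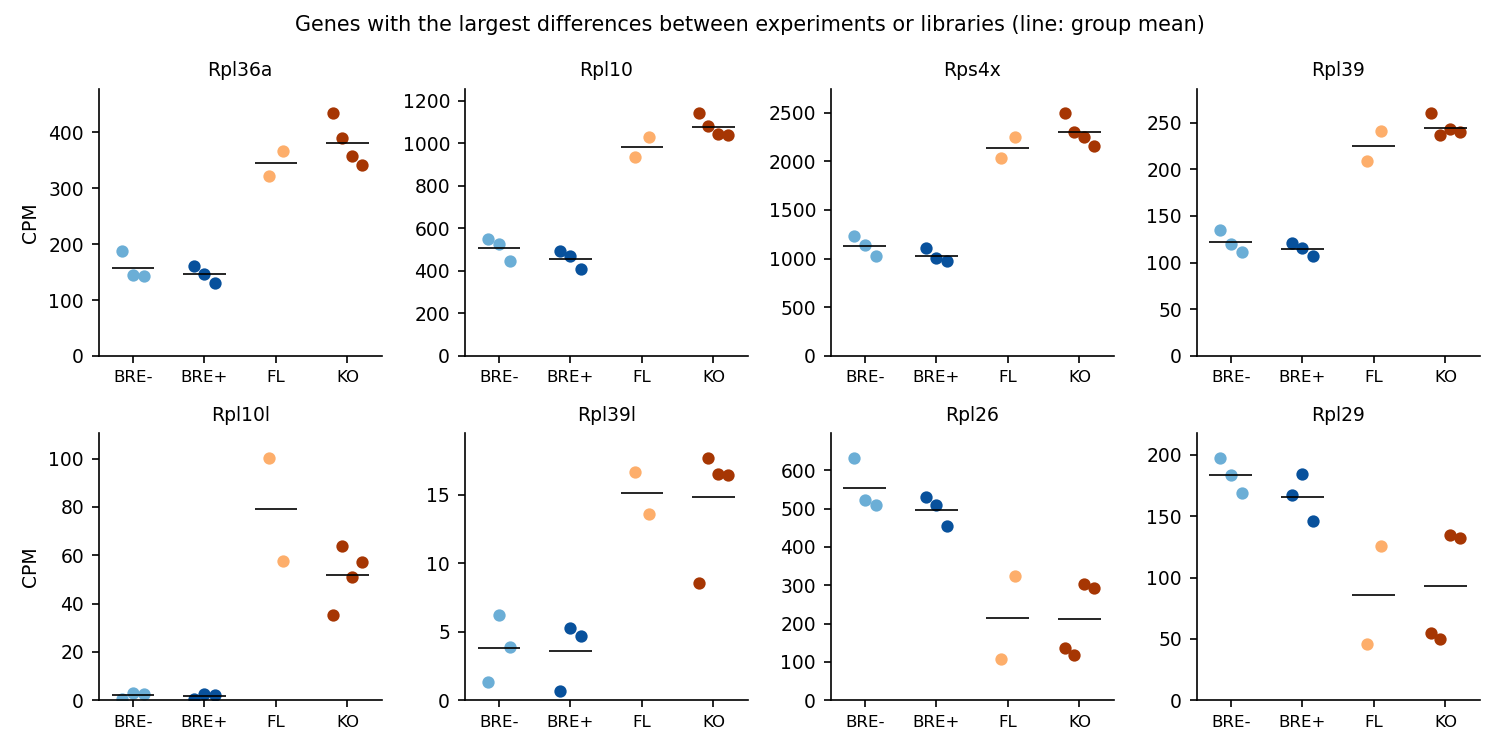
CPM of 8 members in each library, by group, with lines at the group means. The top row holds the 4 X-linked genes, which sit lower in all 6 BRE libraries than in all 6 Smad1/5 libraries; the bottom row holds Rpl10l and Rpl39l, also lower in the BRE libraries, and Rpl26 and Rpl29, where 3 of the 6 Smad1/5 libraries lie below the other three.

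Among the 7 second copies, Rpl10l and Rpl39l differed most. Rpl10l, an intronless copy that serves male germ cells, was at 0.530, 3.05 and 2.65 CPM in BRE-negative, 0.404, 2.73 and 2.12 in BRE-positive and 35.1 to 100.5 CPM in the Smad1/5 libraries. It was 33.8-fold lower in the BRE libraries (-5.08 ± 0.39, SE, edgeR adjusted p = 1.31e-07), while its X-linked parent Rpl10 was 2.13-fold lower. Rpl10l was low in both members of pair 1, with 19 and 13 counts, and its 7.6% of shared stretches leaves most of its transcript distinct. Rpl39l was at 0.652 to 6.19 CPM in the BRE and at 8.58 to 17.7 CPM in the Smad1/5 libraries (-2.03 ± 0.42, edgeR adjusted p = 0.000746), and its parent Rpl39 was 1.98-fold lower. For both copies the 2 experiments did not overlap, which held for 23.3% of all genes in this direction.

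The other copies differed less. Rpl7l1 was 1.39-fold lower in the BRE libraries (edgeR adjusted p = 8.89e-05), where its relative Rpl7 was 1.30-fold higher (edgeR adjusted p = 0.000401). Rps27l was 1.21-fold lower and Rps27 1.20-fold lower. Rpl22l1, the copy that can stand in for Rpl22, was 1.13-fold higher (edgeR adjusted p = 0.0294), and Rpl22 was not called (-0.15 ± 0.07, edgeR adjusted p = 0.0927). Rps4l was 1.19-fold lower (edgeR adjusted p = 0.0452), a call lost under most alternatives, and its X-linked parent Rps4x 2.06-fold lower. Rpl3l stayed between 0.193 and 0.831 CPM in every library and was not called, and Rpl3, at the peptidyl transferase centre, was 1.36-fold higher (edgeR adjusted p = 0.000228).

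Rpl36al, the autosomal copy of Rpl36a, lies outside the symbol rule and was 1.54-fold lower in the BRE libraries. Among all genes 33.7% were called higher and 34.0% lower. Of 31 biogenesis factors 6 were higher and 16 lower. The largest rise was that of Ncl, nucleolin, on chromosome 1 (2.23-fold). Of the mitochondrial ribosomal protein genes 5 of 75 were higher and 38 lower, with a median of -0.19. Among the regulators Myc was 3.44-fold higher (edgeR adjusted p = 1.27e-05) and Mycn 2.17-fold lower in the BRE libraries (edgeR adjusted p = 0.000199).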

How the data were processed

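Deposited by the authors were a raw count per Ensembl gene in each library, in whole numbers, and a TPM table giving symbols and biotypes, a signal normalised by the authors. The submitters' processing notes name STAR 2.4.1d, featureCounts 1.4.6, DESeq2 1.6.3, CASAVA 1.8.2 and FastQC 0.11.3, and the builds mm10 and GRCm38.p4. Per the labels' protocols, the library kit was stranded. Neither the annotation release nor whether counting used strand is given in the sources used here. Reads of a gene and an overlapping or antisense one may be mixed. The deposited TPM were reproduced as count + 1 over a gene's length, rescaled in each library. Counts were given for 39179 genes. The TPM table named 38310 of them, after 722 repeated entries were dropped.

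The test was edgeR 4.0.16 (R 4.3.3), quasi-likelihood, on all counts passing the filter by group (minimum count 10, total 15), with TMM scaling and Benjamini-Hochberg adjusted p under 0.05. All 83 genes passed the filter in each comparison. CPM used the TMM-scaled sizes of the 12 libraries. The BRE fit had the pair as a block, since the series states that cells were collected in pairs, and same-numbered BRE libraries deviated together (correlation across genes 0.80, 0.76 and 0.73). The KO fit had none, since the labels do not tie libraries to parental lines. The third comparison used all 12 libraries without a block, with the mean of the BRE groups against the mean of FL and KO. SE follow from the F statistic. Scripts were tested on simulated data. KO replicates 3 and 4 were the most alike libraries (median chi-square 1.22 per gene) and were counted separately.

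Named genes were, per comparison, the 6 largest rises and falls among called members, all P stalk, 5S, ubiquitin fusion and second-copy genes with their parents, the 3 highest and 3 lowest by TPM, and up to 3 called genes of other lists. Members and lists were chosen with earlier results of these data known. Alternatives were DESeq2 1.42.0, RLE scaling, TMM without the members, other filters, limma 3.58.1 on log2 TPM, offsets for length and GC, other blocks or libraries, and each replicate left out.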

Additional observations from a re-analysis of the deposited data

Results flagged for a closer look

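In the KO group, the only one of 4 libraries, the CPM of 30 named members and the members' share were examined for a library standing apart from the other 3. Chance alone gives about 1 in 20. The gap to the nearest library took an unusually large part of the group's range in 3 of 31. Rplp2, of the P stalk, was at 582 CPM in KO replicate 1 and at 510.2 to 512 CPM in the others. Rpl39l was at 8.58 CPM in KO replicate 1 and at 16.5 to 17.7 CPM in the others. Rps27l was at 216 CPM in KO replicate 2 and at 231 to 232 CPM in the others. No explanation for these was tested.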

How the results depend on the processing

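In the KO against FL comparison 0 members were called, and 2 were called higher with the 2 library sets as a block, an alternative chosen after seeing the data. Under every other alternative run 0 were called, the replicate block included. KO and FL numbers did not pair the libraries (correlations of deviations 0.39 for number 1 and -0.51 for number 2), and with the replicate block the median was 0.16. In the BRE comparison, where 1 member was lower, the number called lower was 3 with DESeq2, 2 with TMM factors computed without the members, 36 with no count filter, 0 with each of 3 limma fits on log2 TPM, 0 with no replicate block, 0 with all 12 libraries in 1 fit, and 0 to 36 over the pairs left out (0 without pair 3, 36 without pair 1). The cause was not tested. The members' median stayed below 0 in all of these, from -0.17 to -0.05, and 1 to 14 members were above 0. Between the experiments, where 23 were lower, 15 were lower with length and GC offsets (26 higher), 10 against FL alone, and 15 to 23 with a library left out (15 without FL replicate 2). The members' median there was 0.06 with the offsets and 0.03 against FL alone, so its sign is not settled.

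The sign of some members that were not called turned. On log2(TPM + 1) with a filter, BRE-positive against BRE-negative gave 0.062 for Rps4l, 0.014 for Rpl39 and 0.0035 for Rpl24. With 0.1 in place of 1 it gave 0.062, 0.014 and 0.0031, and with no filter 0.062, 0.014 and 0.0035, and 0.017 for Rpl3l. With length and GC offsets Rps4l was at 0.048. Over the pairs left out Rpl39l ranged from -0.41 to 0.0050, Rps4l from -0.072 to 0.0099 and Rpl3l from -0.27 to 0.27. For KO against FL, Rpl5 was at -0.0057 with no count filter, -0.016 with a mean CPM of at least 1, -0.032 on each of the 3 log2 TPM scales, and Rpl3l at -0.017 on log2(TPM + 1) with no filter. With a library left out the ranges were -0.055 to 0.063 for Rpl5, -0.018 to 0.24 for Rps27a, -0.27 to 0.29 for Rpl3l, -0.17 to 0.16 for Rpl39l, -0.034 to 0.15 for Rpl7, -0.056 to 0.13 for Rpl4, -0.0003 to 0.12 for Rpl22 and -0.055 to 0.010 for Rpl7l1. Between the experiments Rplp2 was at -0.0014 with no count filter, Rps27a at 0.052 with length and GC offsets and Rpl12 at 0.0059 against FL alone. With a library left out Rplp2 ranged from -0.055 to 0.064, Rpl24 from -0.013 to 0.088 and Rpl4 from -0.0032 to 0.10. The 4 X-linked members, Rpl10l, Rpl39l, Rps3a1, Rpl35a, Rpl26, Rplp0 and Rpl15 kept their direction and their call under every alternative run. Depth limits Rpl3l, at 7 to 23 counts per library, for which no difference was detectable.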
